A study of Mus musculus with 4 samples.

Results

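Small nucleolar RNAs (snoRNAs) and small Cajal body RNAs (scaRNAs) are short, structured noncoding RNAs that guide chemical changes on other RNAs. They were described here in ribosome protected fragments (RPF) and in total RNA of mouse embryonic stem cells depleted of eIF4A3. The members were selected on symbol and count: genes whose GENCODE M21 symbol starts with Snord, Snora or Scarna and whose raw counts summed to at least 20 over the 4 libraries. The summed count thus chose them and is given as a description only. There were 78 members among the 37311 genes of the files: 46 Snord, 23 Snora and 9 Scarna genes.

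The cells were the J1 line (129S4/SvJae), feeder-free in serum with leukaemia inhibitory factor, infected with 2 short hairpins against eIF4A3, the helicase of the exon junction complex, and selected with puromycin at 1 μg/mL for 3 days. They were collected on day 4.5, after 1 min of cycloheximide at 0.1 mg/mL, which holds ribosomes on their messages. RPF and total RNA libraries were made from 2 replicates each, and all 4 libraries came from knockdown cells. No value below shows an effect of eIF4A3, because libraries of cells with normal eIF4A3 were not analysed here. The labels do not say which hairpin a replicate received or whether an RPF and a total RNA library with one number came from one lysate.

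C/D box snoRNAs (Snord) form particles around fibrillarin and guide ribose methylation, mostly of ribosomal RNA. H/ACA box snoRNAs (Snora) form particles around dyskerin and guide pseudouridylation. A few members of both classes act in cutting the ribosomal RNA precursor. ScaRNAs carry one or both kinds of box and guide the same changes on spliceosomal RNAs in Cajal bodies. In mammals most snoRNAs are cut out of introns of host genes, and they reside in nuclei, away from translating ribosomes.

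Library totals over genes were 9434987 and 7615277 counts for RPF (replicates 1, 2) and 8969965 and 8218020 counts for total RNA. Levels below are CPM, counts scaled to a common library size with trimmed mean of M-values (TMM) factors. Where a library holds 0 counts, as many as 3 cannot be told from it, or 0.318 to 0.394 CPM before TMM scaling. Such limits, and the intervals below, hold for counting error alone: without molecular identifiers a read is not an independent molecule. Eif4a3, the targeted gene, stood at 1640 and 1325 counts in RPF and 1229 and 975 counts in total RNA, with no library of cells without the knockdown beside it. All 6 stem cell markers were detected, with a summed level of 4480 and 4505 CPM in RPF and 3210 and 3109 CPM in total RNA, and 6 fibroblast markers summed to 12.9 and 11.4 CPM in RPF and 5.58 and 5.16 CPM in total RNA, with Dcn at 0.

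Many of these short genes lie inside or beside other annotated sequence. Reads that overlapped more than 1 gene and were left uncounted made up 6.77 ± 2.56% of all tallied alignments in RPF and 0.737 ± 0.0257% in total RNA (SD, n = 2 libraries each). Reads with more than 1 alignment made up 20.8 ± 0.286% in RPF and 16.6 ± 0.0630% in total RNA. In GENCODE M21, 27 of the 78 members (34.6%) overlap an exon of another gene on their strand and 36 share at least one 28-base stretch with a transcript of another gene. Another 41 genes with these symbols lay below 20 counts, and 38 of them were at 0 in all 4 libraries; of those 38, 34 (89.5%) overlap an exon of another gene on their strand. Just outside the threshold lay Snora36b with a sum of 11 counts, and just inside lay Snord58b with 21 and Snord61 with 22.

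The 12 sequences printed here belong to the RNAs that the results turn on: C/D box RNAs with the highest ratios, processing RNAs with low ones, and H/ACA box RNAs from both ends of their class. They are GENCODE M21 transcripts (GRCm38), written 5' to 3' as DNA letters. Capitals mark TGATGA, the core of the C box, within the first 15 bases, CTGA, the D box, within the last 15 bases, or ACA followed by exactly 3 final bases.
Snord85: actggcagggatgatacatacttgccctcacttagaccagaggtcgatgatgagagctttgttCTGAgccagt
Snord60: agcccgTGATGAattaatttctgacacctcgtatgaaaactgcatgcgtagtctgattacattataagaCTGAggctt
Snord87: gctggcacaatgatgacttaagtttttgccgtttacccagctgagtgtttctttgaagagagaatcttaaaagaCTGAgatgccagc
Snord64: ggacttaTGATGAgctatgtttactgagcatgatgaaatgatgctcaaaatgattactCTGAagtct
Snord104: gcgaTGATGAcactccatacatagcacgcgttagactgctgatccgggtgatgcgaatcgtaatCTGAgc
Snord118: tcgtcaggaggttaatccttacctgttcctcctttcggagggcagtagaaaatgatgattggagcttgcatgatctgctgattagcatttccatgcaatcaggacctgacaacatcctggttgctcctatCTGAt
Snord14a: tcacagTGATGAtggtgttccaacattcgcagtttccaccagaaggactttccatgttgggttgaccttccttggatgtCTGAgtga
Snora57: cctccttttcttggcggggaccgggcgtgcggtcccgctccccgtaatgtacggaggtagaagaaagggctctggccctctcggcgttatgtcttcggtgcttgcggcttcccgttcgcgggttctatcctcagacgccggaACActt
Snora24: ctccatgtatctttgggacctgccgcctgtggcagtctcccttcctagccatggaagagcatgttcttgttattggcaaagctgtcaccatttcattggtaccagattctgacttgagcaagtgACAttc
Snora73a: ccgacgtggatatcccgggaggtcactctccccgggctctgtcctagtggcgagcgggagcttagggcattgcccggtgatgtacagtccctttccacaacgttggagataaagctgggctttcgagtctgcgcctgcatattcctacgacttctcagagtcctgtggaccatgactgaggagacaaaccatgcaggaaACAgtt
Snora73b: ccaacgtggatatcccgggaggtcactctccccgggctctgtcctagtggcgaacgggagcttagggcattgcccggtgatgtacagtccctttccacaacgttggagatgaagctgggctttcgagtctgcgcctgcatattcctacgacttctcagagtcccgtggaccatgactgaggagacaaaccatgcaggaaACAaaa
Snora7a: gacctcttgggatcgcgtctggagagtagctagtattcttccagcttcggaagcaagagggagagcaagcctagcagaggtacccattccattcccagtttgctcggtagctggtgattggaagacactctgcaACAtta

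The letters were searched on the transcript strand only, and the motifs do not overlap one another. TGATGA lay in the first 15 bases of 27 of 46 Snord transcripts, CTGA in the last 15 bases of 42, and both in 26. Among 141572 transcripts of other genes the same windows held TGATGA in 0.472% and CTGA in 7.05%. ACA with 3 final bases (ACANNN) ended 20 of 23 Snora transcripts, 0 of 46 Snord transcripts and 2.42% of the other transcripts. Of the 9 Scarna transcripts, 4 held both C/D motifs and 2 ended in ACANNN. The symbols thus split the members as the motifs in these windows do, apart from 20 Snord transcripts without both exact motifs there and 3 Snora transcripts without ACANNN. Snord85, Snord87 and Snord118 printed above are among these 20, yet each holds TGATGA further inside its transcript. Snord transcripts had a median length of 78 bases (64 to 238), Snora transcripts 136 bases (127 to 205) and Scarna transcripts 140 bases (70 to 414).

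C/D box members took a larger part of the footprint libraries than of the total RNA libraries, and H/ACA box members a smaller part. Snord genes summed to 747 and 1101 CPM in RPF replicates 1 and 2, against 274 and 340.1 CPM in total RNA. Snora genes summed to 208 and 276 CPM in RPF, against 463 and 438 CPM in total RNA. Scarna genes summed to 698 and 344 CPM in RPF, against 250.4 and 173 CPM in total RNA. The fractions did not overlap in any of the 3 sums. The Scarna sums rest on few genes. Scarna2 held 47.5% and 35.7% of the Scarna counts in RPF and 38.1% and 37.6% in total RNA. Scarna8 had 1200 and 789 counts in RPF and 81 and 73 in total RNA, and without it the Scarna sums of the fractions overlap. Within a library, where no scaling enters, there were 3.59 and 3.99 Snord counts per Snora count in RPF and 0.591 and 0.776 in total RNA. One gene, Snord104, held 38.6% and 23.9% of the Snord counts in RPF and 9.09% and 8.47% in total RNA. Without it the number of Snord counts per Snora count was 2.20 and 3.04 in RPF and 0.537 and 0.710 in total RNA. With 2 libraries per fraction an exact permutation test of a single value cannot go below p = 0.333, so the sums carry no test. All 78 members together made up 0.145 ± 0.0138% of gene counts in RPF and 0.112 ± 0.000189% in total RNA.

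**Figure D1:**
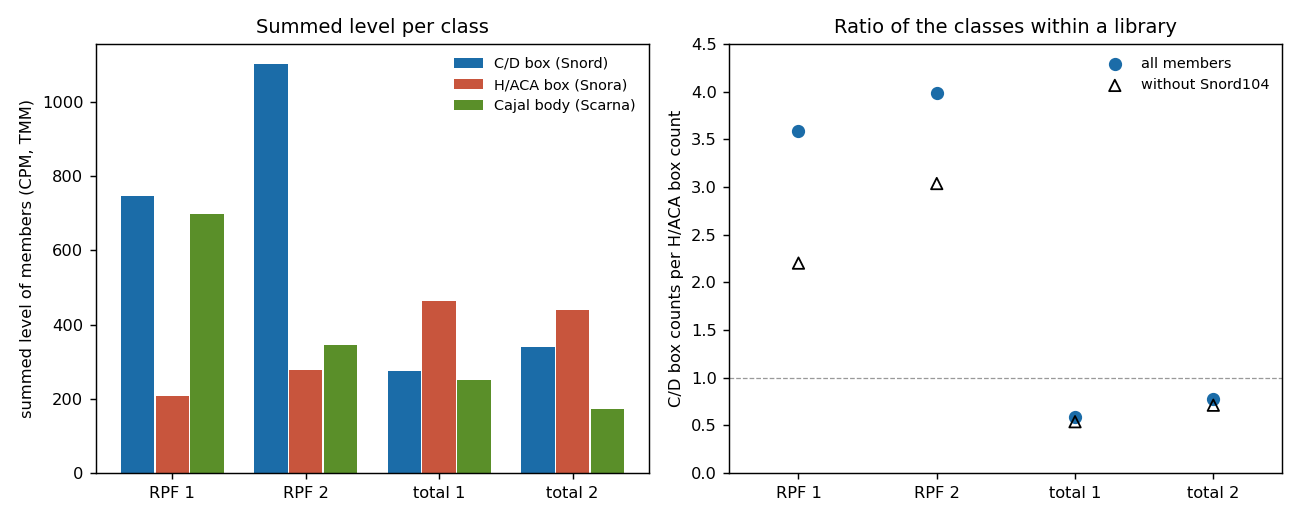
Left, summed level of the members of each class in each library (CPM, TMM-scaled, bars from 0). Right, Snord counts per Snora count within each library, with all members (circles) and without Snord104 (triangles); both RPF libraries lie above 1 and both total RNA libraries below 1.

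Gene by gene, the ratio of RPF to total RNA was tested with edgeR's quasi-likelihood test over all 13809 genes that passed a filter on low counts, with Benjamini-Hochberg adjustment. Of those genes 20.5% were higher and 21.2% lower in RPF at an adjusted p below 0.05, with a median log2 ratio of -0.02. The filter passed 73 of the 78 members and left out Snord42b, Snord58b, Snord61, Snord91a and Snord98, at 21 to 32 counts each. Because the filter and the member threshold both work on counts, a weakly counted member may have passed through the fraction in which it was high, and the counts and medians here describe the tested members only. Among 41 tested Snord genes 14 were higher (34.1%), 7 lower (17.1%) and 20 did not pass, with a median log2 ratio of 0.32. Among 23 Snora genes 2 were higher, 12 lower (52.2%) and 9 did not pass, with a median of -1.85. Among 9 Scarna genes 5 were higher, 0 lower and 4 did not pass, with a median of 1.29. The 2 RPF libraries did not overlap the 2 total RNA libraries at 18 Snord genes upward and 14 downward, at 3 and 17 Snora genes, and at 5 and 2 Scarna genes. Over all tested genes they did not overlap at 34.9% upward and 37.9% downward, so such separation is common in these libraries. The medians of the C/D and H/ACA classes lay 2.16 apart on the log2 scale, and in the 4 single pairings of an RPF with a total RNA library, on log2(CPM + 0.5), 1.64 to 1.90 apart.

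Most of these calls were of at least 4-fold. That size with a passing test was met by 11 Snord, 0 Snora and 1 Scarna genes upward and by 6 Snord, 9 Snora and 0 Scarna genes downward. Over all tested genes 2.08% met it upward and 4.63% downward. At a mean of at least 10 CPM, 8 of 15 Snord genes were higher and 1 lower, and 2 of 13 Snora genes were higher and 5 lower. Of all 9021 genes at that level 2472 were higher and 2016 lower. The 4-fold size with a passing test was met there by 8 Snord genes upward and 0 downward, and by 0 and 3 Snora genes. Over all genes at that level 108 met it upward and 170 downward. The mean was taken over all 4 libraries, so a gene could reach 10 CPM through the fraction in which it was high. Snord85 had 1.51 CPM in total RNA and Snora57 had 2.85 CPM in RPF. These counts are thus a description only. With library size only as the scaling, all genes had a median of -0.46 (-0.02 with TMM) and the Snord genes one of -0.11, while the distance of the Snord median from that of all genes stayed at 0.35 (0.34 with TMM) and that of the Snora median at -1.83 (-1.82 with TMM). The split of member calls then was 14 higher and 27 lower (34.1% of calls higher), against 21 and 19 (52.5%) with TMM. The H/ACA median differed between members with and without sequence or exons in common with other genes. The 7 Snora members that share no 28-base stretch and no exon with another gene had a median of -0.79, with 1 higher and 1 lower. The other 16 had a median of -2.24, with 1 higher and 11 lower. For Snord the 26 members without such sharing had a median of 0.50 with 8 higher and 4 lower. The other 15 had a median of 0.05 with 6 higher and 3 lower. The part of read assignment in these ratios was not tested, nor was whether the RPF reads of these RNAs came from ribosomes.

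**Figure D2:**
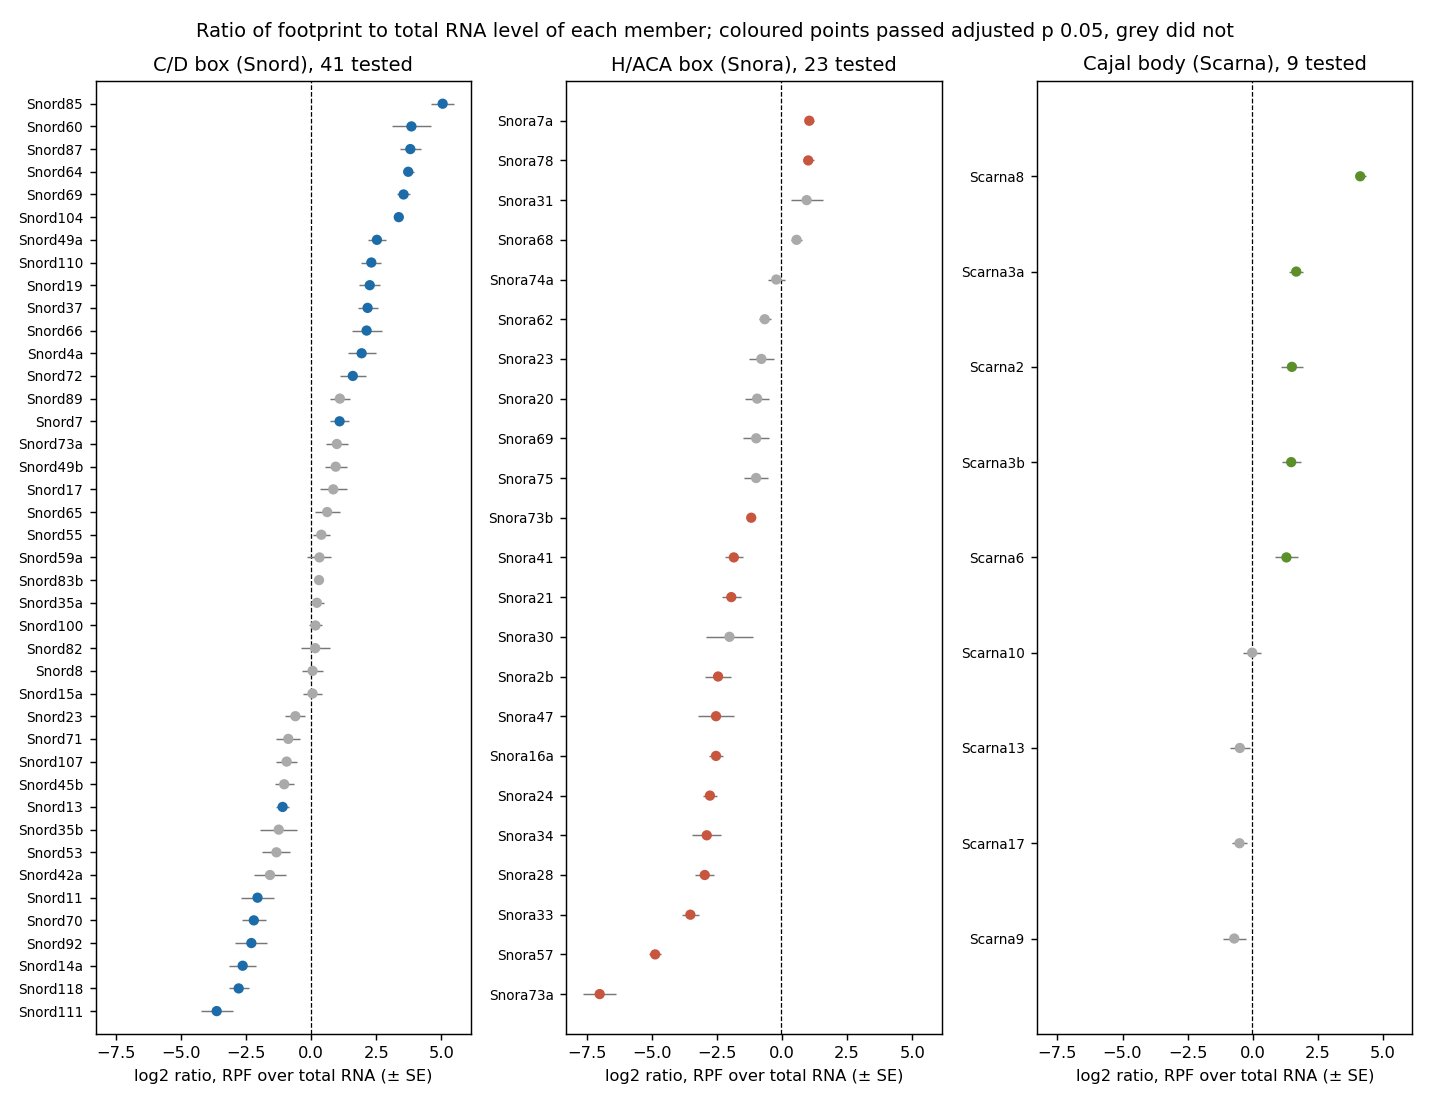
Log2 ratio of RPF to total RNA (± SE) of each of the 73 tested members, by class. Coloured points passed an adjusted p of 0.05, grey points did not, and the dashed line is the median of all genes (-0.02); most Snora points lie left of it, and the Snord points run from -3.63 to 5.04.

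The highest C/D box ratios belonged to Snord85, Snord60, Snord87, Snord64, Snord69 and Snord104, of which Snord60, Snord69, Snord87 and Snord104 are guides of ribosomal RNA methylation. Snord85 had 258 and 462 counts in RPF, against 13 and 17 counts in total RNA. Its level was 50.4 ± 24.0 CPM in RPF and 1.51 ± 0.341 CPM in total RNA (SD, n = 2 libraries per fraction), a log2 ratio of 5.04 ± 0.43 (SE, adjusted p = 0.000617). Every RPF library was far above both total RNA libraries, although the RPF replicates differed. Snord104, the most abundant Snord member by counts, had 2231 and 1802 counts in RPF and 254 and 279 in total RNA, or 276 ± 18.2 and 26.8 ± 2.78 CPM (3.36 ± 0.16, adjusted p = 0.000116). Its replicates lay close together in each fraction. Per 100 bases of transcript it reached 394 CPM in RPF and 38.3 CPM in total RNA, the highest RPF level per length of any member; the next were Scarna8 at 103 CPM and Snord60 at 102 CPM in RPF.

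Snord60 had 195 and 920 counts in RPF, against 65 and 45 counts in total RNA. Both RPF libraries exceeded both total RNA libraries, yet RPF replicate 2 held several times the level of replicate 1 (25.2 CPM in replicate 1 and 134 CPM in replicate 2). The log2 ratio of Snord60 was 3.85 ± 0.75 (adjusted p = 0.00685) and stood at 2.21 without RPF replicate 2 and at 4.61 without RPF replicate 1. Snord87, hosted by the noncoding gene Snhg6, had 401 and 683 counts in RPF and 38 and 69 counts in total RNA (3.80 ± 0.41, adjusted p = 0.00105). Snord69 had 231 and 216 counts in RPF and 25 and 27 in total RNA (3.54 ± 0.24, adjusted p = 0.000356). Both RPF libraries exceeded both total RNA libraries at either gene, as at 34.9% of all tested genes. All 28-base stretches of Snord60 and of Snord69 occur in annotated transcripts of their hosts, Rab26os and Gnl3, while Snord87 shares none.

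Other abundant C/D box RNAs, Snord83b and Snord17, did not pass the test. Snord83b had 396 and 358 counts in RPF and 374 and 460 counts in total RNA, with a log2 ratio of 0.30 ± 0.17 (adjusted p = 0.199) that was -0.14 with library size only. Snord17, the longest Snord member at 238 bases, had 249 and 822 counts in RPF and 365 and 471 counts in total RNA. Its total RNA libraries lay between its 2 RPF libraries. Its log2 ratio was 0.85 ± 0.52 (adjusted p = 0.230). It stood at 1.52 without RPF replicate 1, at -0.37 without RPF replicate 2 and at 1.08 without total RNA replicate 2. A split at 100 bases was chosen after the values were seen: of 7 tested Snord genes at or above it 0 were higher and 2 lower, and of 34 shorter ones 14 were higher and 5 lower. Across the 41 tested Snord genes Spearman's rho between length and ratio was -0.36 (Pearson's r -0.19), a description across genes that share the same 4 libraries. For length, rho was -0.03 across 23 Snora and 0.28 across 9 Scarna genes, and for GC content it was -0.05 across the Snord genes. The mean level over the 4 libraries, which includes the RPF level itself, gave a larger value across the Snord genes (rho 0.55, r 0.44).

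The tested Snord genes that hold both exact motifs in the end windows numbered 25, and the rest 16. This split goes by place in the windows, not by whether a transcript has the boxes. Those with both had a median log2 ratio of 0.85 with 9 higher and 3 lower, and those without both a median of -0.96 with 5 higher and 4 lower. Snord85, the highest of all, is among those without both, as is Snord111, the lowest Snord gene. Snord111 had 1 and 2 counts in RPF, against 26 and 28 counts in total RNA. From the summed counts its RPF level was 0.0758 of its total RNA level (exact 95% interval 0.0152 to 0.234).

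A list of RNAs that act on the ribosomal RNA precursor had 5 tested members, Snord118, Snord14a, Snord13, Snora73a and Snora73b, and all 5 were lower in RPF, beside 21.2% of all tested genes. Most are needed for processing of the precursor, while Snord13 guides a chemical change. Snord118 (the U8 RNA), needed for the large-subunit rRNAs, had 8 and 14 counts in RPF, against 106 and 104 counts in total RNA. Its level was 1.54 ± 0.712 CPM in RPF and 10.6 ± 0.251 CPM in total RNA (-2.79 ± 0.39, adjusted p = 0.00213). Snord14a, of the U14 family that acts on the small-subunit rRNA, had 6 and 12 counts in RPF and 56 and 98 counts in total RNA (-2.63 ± 0.52, adjusted p = 0.00725; -3.29 without RPF replicate 2). Snord13, which guides acetylation of the small-subunit rRNA, had 62 and 48 counts in RPF and 149 and 171 counts in total RNA (-1.10 ± 0.25, adjusted p = 0.0125). The call of Snord13 was lost without total RNA replicate 2 (adjusted p = 0.0811) and with glmTreat against a fold of 1.5 (0.0648); across all alternatives its adjusted p ran between 1.88e-06 and 0.0811. Every RPF library of these 3 genes lay below every total RNA library, as at 37.9% of all tested genes. All 28-base stretches of Snord14a occur in annotated transcripts of its host, Rps13. Of those of Snord118 34.3% occur in Gm24208, while Snord13 shares none. Snord22 and Snord14e, of the same list, were at 0 in all 4 libraries, and Snord3a and Snord3b were not analysed here.

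Snora73a and Snora73b, copies of the U17 RNA that takes part in cutting the small-subunit rRNA precursor, completed the list. Snora73b had 267 and 208 counts in RPF, against 810 and 658 counts in total RNA, and a level of 32.4 ± 2.97 CPM in RPF and 73.6 ± 8.06 CPM in total RNA (-1.18 ± 0.16, adjusted p = 0.00188). Snora73a had 1 and 0 counts in RPF, against 211 summed counts in total RNA, 98 of them in replicate 2. From the summed counts its RPF level was 0.00646 of its total RNA level (exact 95% interval 0.000163 to 0.0364). The copies printed above are 96.6% identical, with 7 mismatches over 205 bases, and 90 of the 178 28-base stretches of Snora73a do not occur in Snora73b. All stretches of both copies occur in some other annotated transcript, among them Snhg3, their host, so the division of reads between the copies is uncertain in both fractions.

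**Figure D3:**
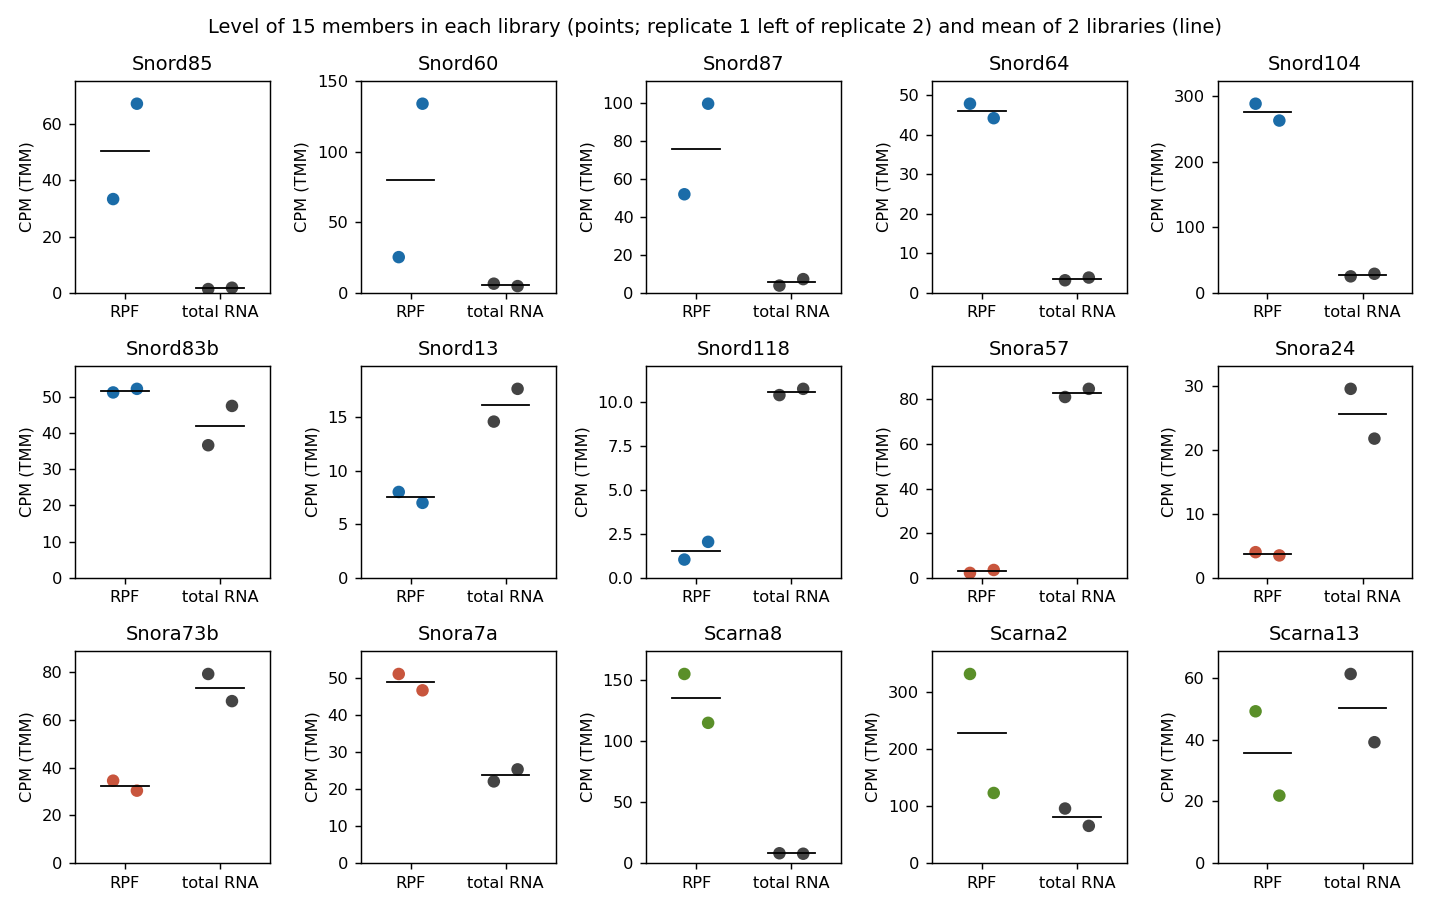
Level (CPM, TMM-scaled, linear axes from 0) of 15 members in each library, RPF left and total RNA right; points are libraries and lines are means of 2. The 5 Snord genes of the top row, shown for their high ratios, have both RPF libraries above both total RNA libraries (34.9% of all tested genes). Snord13, Snord118, Snora57, Snora24 and Snora73b have both below (37.9%).

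Of 23 tested H/ACA box RNAs 12 were lower in RPF than in total RNA and 2 higher, beside 21.2% and 20.5% of all tested genes. Snora57 had 17 and 24 counts in RPF, against 828 and 821 counts in total RNA. Its level was 2.85 ± 0.920 CPM in RPF and 82.9 ± 2.59 CPM in total RNA (-4.87 ± 0.23, adjusted p = 0.000116), and per 100 bases it had the highest total RNA level of any member (56.0 CPM). Its fractions were widely separated in all pairings. Snora24, hosted by Snhg8, had 31 and 24 counts in RPF and 302 and 211 in total RNA (-2.77 ± 0.28, adjusted p = 0.000881). Snora16a, hosted by Snhg12, had 29 and 26 counts in RPF and 250 and 187 in total RNA (-2.53 ± 0.27, adjusted p = 0.000987). Snora21, in the ribosomal protein gene Rpl23, had 35 and 69 counts in RPF and 263 and 292 in total RNA (-1.95 ± 0.36, adjusted p = 0.00548; -2.61 without RPF replicate 2). All 3 had both RPF libraries below both total RNA libraries, as had 37.9% of all tested genes. Every 28-base stretch of Snora24 and Snora16a occurs in other annotated transcripts, their hosts among them. Of the stretches of Snora57 33.9% occur in Gm26132, and of those of Snora21 34.5% occur in Gm23795.

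A pair of H/ACA box RNAs went the other way. Snora7a, in the ribosomal protein gene Rpl32, had 395 and 320 counts in RPF, against 225 and 245 counts in total RNA (1.05 ± 0.16, adjusted p = 0.00319). Snora78, in Snhg9, had 151 and 136 counts in RPF and 106 and 89 in total RNA (1.01 ± 0.22, adjusted p = 0.0105). Both RPF libraries exceeded both total RNA libraries in each, as at 34.9% of all tested genes. All 28-base stretches of Snora7a occur in other annotated transcripts, those of Rpl32 among them, while Snora78 shares none. The call of Snora78 was lost with library size only (adjusted p = 0.0838), with glmTreat against a fold of 1.5 (0.0699) and without total RNA replicate 2 (0.0675), within 8.29e-07 to 0.0838 over the alternatives; the 2 higher calls of the class became 4 without RPF replicate 1 and 1 without total RNA replicate 2. Snora68 (0.56 ± 0.20, adjusted p = 0.0592) and Snora74a (-0.22 ± 0.32, adjusted p = 0.608) did not pass. Snora74a changed direction without RPF replicate 1 (0.22) and stood at -0.80 without RPF replicate 2.

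ScaRNAs were higher in footprints or did not pass. Scarna8 had 1200 and 789 counts in RPF, against 81 and 73 counts in total RNA, which gave levels of 135 ± 28.4 CPM in RPF and 7.73 ± 0.280 CPM in total RNA (4.12 ± 0.20, adjusted p = 0.000116). It shares no 28-base stretch with another transcript, and its host Haus6, a subunit of the augmin complex of the spindle, was lower in RPF (-0.67 ± 0.17, adjusted p = 0.0170). Scarna3a had 292 and 162 counts in RPF and 93 and 99 in total RNA (1.67 ± 0.27, adjusted p = 0.00370). Scarna2, which has no host, had 2565 and 842 counts in RPF and 975 and 630 counts in total RNA, with both RPF libraries on top (1.502 ± 0.43, adjusted p = 0.0291). Scarna13, in Snhg10, had 381 and 150 counts in RPF and 627 and 380 counts in total RNA, and its fractions overlapped (-0.50 ± 0.37, adjusted p = 0.322). Scarna10 lay near even at 280 and 127 counts in RPF and 354 and 204 in total RNA (-0.02 ± 0.36, adjusted p = 0.965), and its sign turned with DESeq2 size factors. Of the 28-base stretches of Scarna10 85.9% occur in Gm28967 or its host Ncapd2. For Scarna3a 33.6% occur in Mir1843b and for Scarna13 15.3% in Mir3069, while Scarna2 shares none.

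Most scaRNA calls were less secure than those above. Scarna6, with 556 and 205 counts in RPF and 274 and 143 in total RNA (1.29 ± 0.43, adjusted p = 0.0492), did not pass without RPF replicate 1 (0.53, adjusted p = 0.0857). Scarna2 stood at 0.62 without RPF replicate 1, and it did not pass with the DESeq2 test (adjusted p = 0.0852) or library size only (0.0640). Over the alternatives the adjusted p of Scarna2 ran up to 0.0861 and that of Scarna6 up to 0.147. The count of 5 higher scaRNAs became 2 with library size only and 2 with glmTreat, and without RPF replicate 1 there were 4 higher and 2 lower. Scarna13 stood at -1.19 without RPF replicate 1, with a single RPF library left in that fit.

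Replicates of the footprint fraction lay at least 2-fold apart at a larger share of these RNAs than of all genes, and the direction differed between Scarna and Snord genes. All 9 Scarna genes were higher in RPF replicate 1 than in RPF replicate 2, with a median log2 difference of 0.95 on log2(CPM + 0.5), and 6 of 9 in total RNA replicate 1 (median 0.11). Of 41 tested Snord genes 30 were higher in RPF replicate 2 (median difference -0.37) and 30 in total RNA replicate 2 (median -0.25). The Snora genes showed no common direction: of 23 genes 14 were higher in RPF replicate 2 (median -0.047) and 10 in total RNA replicate 2 (median 0.14). Over all genes the medians were -0.0021 in RPF and -0.008 in total RNA. The RPF replicates lay at least 2-fold apart at 19.5% of Snord, 30.4% of Snora and 44.4% of Scarna genes, against 6.31% of all genes; the total RNA replicates did so at 0 of the 73 members and at 1.67% of all genes. The count of lower Snord genes, 7 with all libraries, was 3 without total RNA replicate 2 and 11 without RPF replicate 2. With 2 replicates per fraction no test of this pattern was made.

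**Figure D4:**
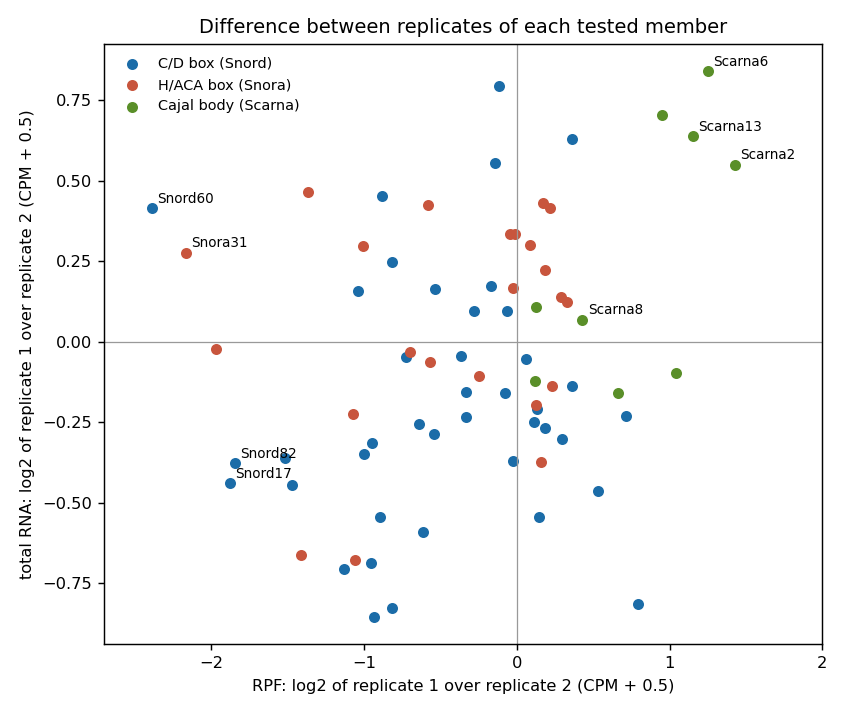
Log2 difference of replicate 1 to replicate 2 on CPM + 0.5 for each of the 73 tested members, in RPF (horizontal) and total RNA (vertical). All 9 Scarna points lie right of 0, and 30 of 41 Snord points lie left of it.

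Host genes were next set beside the RNAs they carry. GENCODE M21 placed 72 of 78 members inside another gene on the same strand, 58 of them in a protein-coding one. Snord104, Snord118, Snord13, Snora57, Scarna2 and Scarna17 had no such host. For 61 tested members the host was tested too, and among the 50 distinct hosts 10 were higher, 8 lower and 32 did not pass (median log2 ratio 0.23, from -2.38 to 1.17). The hosts thus spanned a smaller range than the RNAs inside them, whose lowest value, a fitted -7.00, is that of Snora73a with 1 count in RPF. Of 35 Snord members 19 had a higher ratio than their host, of 20 Snora members 4, and of 6 Scarna members 4. Across genes, which are not independent replicates and share the 4 libraries, Spearman's rho between the ratios of member and host was -0.25 for Snord (Pearson's r -0.23, n = 35), 0.40 for Snora (r 0.34, n = 20) and -0.89 for Scarna (r -0.39, n = 6).

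RNAs cut from one host could differ in ratio, and 10 hosts carried 22 members. Snord64 and Snord107 lie in Gm38393, at the imprinted Snrpn region of chromosome 7, where the neighbouring clusters Snord115 and Snord116 were not analysed here. Snord64 had 370 and 303 counts in RPF and 32 and 37 in total RNA (3.72 ± 0.21, adjusted p = 0.00018). Snord107 had 12 and 17 counts in RPF and 42 and 35 in total RNA (-0.94 ± 0.41, adjusted p = 0.105). Within a library there were 30.8 and 17.8 Snord64 counts per Snord107 count in RPF and 0.762 and 1.06 in total RNA. The host itself stood at -0.01 ± 0.21 (adjusted p = 0.970). Every 28-base stretch of both RNAs occurs in the host's annotated transcripts.

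The ribosomal protein gene Rps12 (-1.47 ± 0.27, adjusted p = 0.00528) carries one RNA of each class. Snora33 had 11 and 9 counts in RPF and 179 and 137 counts in total RNA (-3.52 ± 0.32, adjusted p = 0.000742), and Snord100 had 78 and 78 counts in RPF and 104 and 87 in total RNA (0.16 ± 0.25, adjusted p = 0.633). There were 7.09 and 8.67 Snord100 counts per Snora33 count in RPF and 0.581 and 0.635 in total RNA. All 28-base stretches of both RNAs occur in other annotated transcripts, those of Rps12 among them. Other hosts carried RNAs that went the same way. Gnl3, a nucleolar GTPase, holds Snord69 and Snord19, both higher (Snord19 2.25 ± 0.41, adjusted p = 0.00541), and Nop58, a core protein of C/D box particles, holds Snord70 (-2.20 ± 0.47, adjusted p = 0.00983) and Snord11 (-2.06 ± 0.63, adjusted p = 0.0351), both lower.

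**Figure D5:**
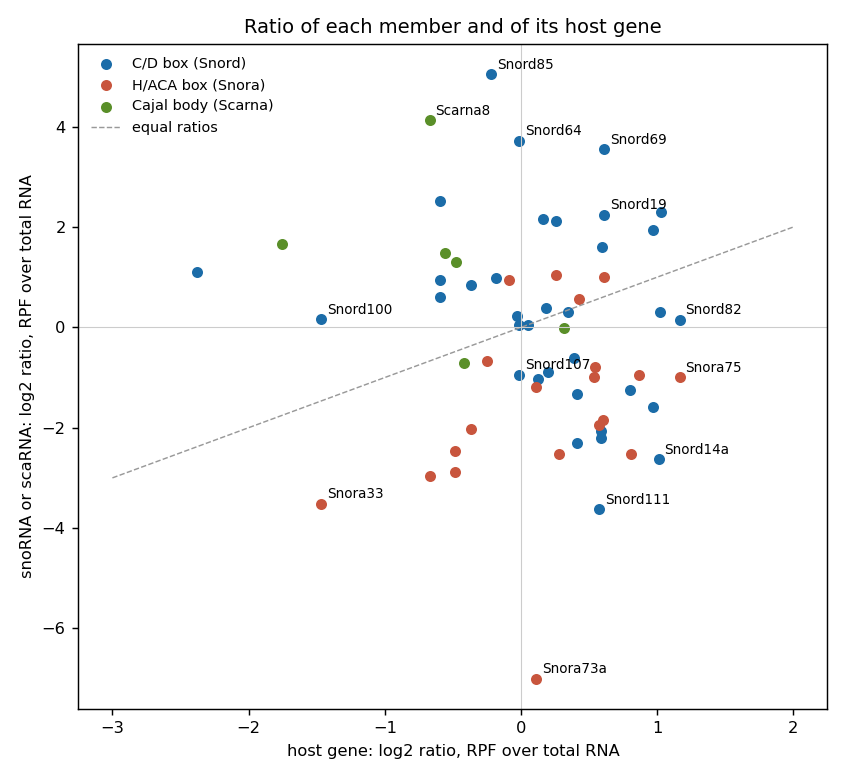
Log2 ratio of RPF to total RNA of 61 members (vertical) against that of their host gene (horizontal), by class; the dashed line marks equal ratios. Members run from -7.00 to 5.04 while hosts run from -2.38 to 1.17.

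The messages of the proteins that build these particles lay mostly on the high side. Of the C/D box core proteins Fbl, the methyltransferase fibrillarin (1.22 ± 0.16, adjusted p = 0.00187), Nop56 (1.03 ± 0.18, adjusted p = 0.00472) and Nop58 (0.59 ± 0.15, adjusted p = 0.0209) were higher, and Snu13 did not pass (0.47 ± 0.19, adjusted p = 0.0882). Of the H/ACA box core proteins Gar1 (0.96 ± 0.14, adjusted p = 0.00229), Nop10 (0.96 ± 0.24) and Nhp2 (0.59 ± 0.19) were higher, and Dkc1, the pseudouridine synthase dyskerin, did not pass (0.57 ± 0.23, adjusted p = 0.0825). Both quartets thus gave 3 higher and 0 lower, although the RNAs of their particles lay apart. Among 12 assembly and Cajal body factors 9 were higher and 0 lower, including the helicase Ruvbl1 (1.34 ± 0.19, adjusted p = 0.00221), Znhit6 (1.33 ± 0.15), the chaperone Nolc1 (1.18 ± 0.22) and the Cajal body scaffold Coil (0.76 ± 0.13). Set against 20.5% of all genes higher, these are counts for lists of 4, 4 and 12 genes without a test of the lists.

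Other small RNA genes of the files differed in their own ways. Of 85 tested genes of biotype snoRNA outside the members, most of them under provisional names, 21 were higher and 31 lower (median -0.62). Of 77 tested small nuclear RNA genes 51 were higher and 12 lower (median 4.02). Many of these are repeated copies of one sequence, and no test of the members against them was made.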

How the data were processed

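Ribosome protected fragments and total RNA were each sequenced from 2 replicates of eIF4A3 knockdown cells. What the authors deposited is 1 raw count per gene and library, not normalised. Per the submitters' processing notes the build was mm9 and the tools included HTSeq 0.11.2, edgeR 3.26.8, TopHat2 2.1.1 and Bowtie 1.2.3; per the labels reads were 50 bp and each RPF sample was sequenced in 4 runs. Not given in the sources used here are the annotation release, the strand setting and how runs were joined; without a known strand setting, reads of a member and of an antisense gene cannot be told apart. The labels call the replicates biological but name no separate cultures, so p-values measure the spread between these libraries, which may be technical.

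Symbols, hosts, exon overlaps and sequences came from GENCODE M21 (GRCm38) by identifier, which named 32621 of 37311 identifiers (87.4%); no coordinates are given because the builds differ. The closing tallies of each file were kept out of library sizes. Genes passed filterByExpr (minimum count 10, minimum total 15) and were fitted in edgeR 4.0.16 (R 4.3.3) with fraction alone, TMM scaling and a two-sided quasi-likelihood test, adjusted by Benjamini-Hochberg over all genes at 0.05. The fit was tested on simulated data. SE is the log2 ratio over the square root of F. A stretch is 28 bases, compared on both strands with all other transcripts; copies in introns were not searched. Intervals of few counts are exact binomial (Clopper-Pearson, 95%, scipy 1.17.1) on summed counts with effective library sizes. The copies of Snora73 were aligned with Biopython 1.88.

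The members and lists were chosen with earlier results of these data known. Named members were, in each class, the 5 with most counts, the 5 highest and 5 lowest passing ratios at a mean of at least 10 CPM with one direction in all 4 pairings (2 and 2 for Scarna), and the processing RNAs; Snora33, Snora47, Snord100, Snord111 and other same-host members, and Snord11, Snord19 and Snord70, were chosen after their values were seen. The alternatives tried were library size only, DESeq2 size factors, TMM from protein-coding genes, no count filter, DESeq2 1.42.0, limma-voom (limma 3.58.1), glmTreat against a fold of 1.5, a replicate block, each library left out, other member thresholds and members without shared sequence.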

Additional observations from a re-analysis of the deposited data

How the results depend on the processing

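The numbers pair no samples by the labels. Over all genes the deviations of same-numbered libraries correlated at r = 0.443, which with 2 pairs is no proof of pairing; with the replicate block, members called numbered 27 higher and 28 lower, against 21 and 19 without it, and all genes called higher numbered 4257; Snord17 (0.66), Snord83b (0.31), Snora68 (0.56) and Scarna13 (-0.55) then passed. Leaving out 1 library in turn, where the lone library of its fraction is assumed to vary like the pair of the other, gave 16 to 24 members higher and 15 to 27 lower, a C/D median of 0.16 to 0.47, an H/ACA median of -1.87 to -1.27, a difference between them of 1.74 to 2.29, and 1720 to 3341 genes higher and 1857 to 3440 lower in all. That assumption is poor for the members where 1 RPF library was left. The RPF replicates lay at least 2-fold apart at 19.5% of Snord, 30.4% of Snora and 44.4% of Scarna genes, and the total RNA replicates at 0 members. With library size only the C/D median was -0.11, the H/ACA median -2.28, and 1223 genes were higher and 4961 lower. With glmTreat 13 members were higher, and 1155 genes were higher and 1549 lower in all. With a member total of at least 100 counts the H/ACA median was -1.09 and the difference 1.48. Among members without a shared stretch or exon 12 were higher and 5 lower, with an H/ACA median of -0.79 and a difference of 1.29. The cause of these shifts was not tested, beyond the smaller number of members in the last 2 sets. Signs turned for Snord17 without RPF replicate 2 (-0.37; 1.52 without RPF replicate 1), Snord83b with library size only (-0.14), Snora74a without RPF replicate 1 (0.22; -0.80 without RPF replicate 2), and Scarna10 with DESeq2 size factors (0.0025), with the DESeq2 test (0.00081), without RPF replicate 2 (0.39) and without total RNA replicate 1 (0.38; -0.58 without RPF replicate 1). Under the alternatives 295 values of the 27 named members kept direction and side of the threshold, 7 turned, 13 no longer passed and 9 newly passed. Depth limits what can be said of 5 members left untested at 21 to 32 counts. The largest SE, 0.90, was that of Snora30, with 0 and 10 counts in RPF and 29 and 28 in total RNA.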
